A study of Mus musculus with 2 samples.

Results

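Upper hair follicle keratinocytes are the epithelial cells that line the hair canal and the funnel above the sebaceous gland. They were examined in dissociated dorsal skin of male C3H/HeN mice, 7 weeks old at the start and 9 weeks old at harvest, in a testosterone model of androgenetic alopecia profiled by droplet single-cell RNA sequencing. A cell counted as a member when at least 3 of the 6 genes Krt79, Defb6, Cst6, Gata6, Sult5a1 and 2310046K23Rik had a unique molecular identifier (UMI, 1 captured transcript), Krt79 among them. In addition, Flg, Flg2, Hrnr and Cdsn, genes of the granular layer, had to stay below 10 of every 10000 UMIs of the cell. Of 62289 barcodes with 200 to 8000 detected genes and at most 10% mitochondrial UMIs, 2075 met the rule. The control library (Con), from mice given vehicle without testosterone, held 499 of them. The library of mice given testosterone propionate under the skin at 0.5 mg a day (TP) held 1576. Each library came from the pooled skin of 15 mice. With 1 library a group, no difference between Con and TP could be tested, and effects of treatment, animals and library preparation cannot be told apart. The library of mice that also received the CXCL12 antibody was not analysed here. All intervals given are exact 95% intervals that cover counting error only.

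The upper follicle is the part of the hair follicle that persists through the hair cycle. Its cells form a stratified wall with a basal side that meets the dermis and inner cells that differentiate and shed into the canal, and it opens onto the epidermis while joining the sebaceous duct and the bulge below. Krt79 is a keratin of the cells lining the hair canal, Defb6 encodes a beta-defensin, Cst6 encodes cystatin M/E, an inhibitor of cysteine proteases, Gata6 is a zinc finger transcription factor of the upper follicle and sebaceous duct, and Sult5a1 encodes a sulfotransferase. Krt17, a keratin of the follicle epithelium, was not part of the rule and served as the check of the label.

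Promoter sequences are shown for rule genes because these genes define the members, and their joint detection is set by the rule. Of the 6 rule genes, 3 had an entry in the RefSeq promoter table (GRCm38.p6), and the 250 bases before each annotated start are given here 5′ to 3′ on the gene's strand. They lie at chr15:101940325-101940574 on the minus strand for Krt79, chr8:19225228-19225477 on the plus strand for Defb6 and chr8:123158281-123158530 on the minus strand for Sult5a1. The Sult5a1 window precedes the start used in the promoter table but lies inside the full annotated gene, which spans chr8:123142843-123158914. Capitals mark the letters GATAA, searched on both strands and read as TTATC on the other strand.
Krt79: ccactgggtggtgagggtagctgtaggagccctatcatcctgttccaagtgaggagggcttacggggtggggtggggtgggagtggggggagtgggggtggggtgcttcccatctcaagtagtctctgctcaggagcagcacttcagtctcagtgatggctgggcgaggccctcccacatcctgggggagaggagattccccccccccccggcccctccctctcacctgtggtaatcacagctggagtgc
Defb6: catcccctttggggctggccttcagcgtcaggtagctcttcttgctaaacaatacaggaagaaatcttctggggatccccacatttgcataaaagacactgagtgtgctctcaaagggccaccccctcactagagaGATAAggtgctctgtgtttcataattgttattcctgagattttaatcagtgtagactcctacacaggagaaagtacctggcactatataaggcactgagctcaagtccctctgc
Sult5a1: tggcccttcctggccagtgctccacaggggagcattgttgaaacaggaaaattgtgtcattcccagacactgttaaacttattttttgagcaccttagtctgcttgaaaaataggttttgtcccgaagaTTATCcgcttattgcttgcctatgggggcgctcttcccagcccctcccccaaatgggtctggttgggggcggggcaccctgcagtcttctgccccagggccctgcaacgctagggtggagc
GATAA occurred in the Defb6 window at positions -114 to -110 and, on the other strand, in the Sult5a1 window at -121 to -117, while the Krt79 window held no match. The same letters occurred in 22.6% of all 32851 promoter windows of this length. The letters TGANTCA, found in 6.75% of all windows, had no match in any of these windows. G and C made up 64.0%, 46.8% and 54.4% of the bases for Krt79, Defb6 and Sult5a1, against a median of 52.4% over all windows.

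Members made up 1.18% of the Con barcodes (499 of 42244, interval 1.08 to 1.29) and 7.86% of the TP barcodes (1576 of 20045, interval 7.49 to 8.24). The share was 6.66 times as high in TP (interval 6.01 to 7.38). The libraries differed in depth, with a median of 2162 UMIs per barcode in Con and 5166 in TP, and members were deeper still, at 4814 and 10390 UMIs. A deeper cell has a greater chance of showing at least 3 of 6 genes. When every barcode was first thinned to 1000 UMIs, the rule kept 204 of 36882 Con barcodes and 405 of 19154 TP barcodes, a ratio of 3.82 (interval 3.22 to 4.55). Thinning to 2000 UMIs gave 3.22. Set against members plus cells with basal, spinous or granular markers, the shares were 8.41% in Con and 20.3% in TP, a ratio of 2.41. This denominator had no class for other follicle keratinocytes. The rule for inner root sheath cells was met by 9366 Con and 906 TP barcodes, and that for bulge cells by 140 and 653. The share was higher in TP under every setting tried, by 2.41 to 7.51 times, the latter without called doublets.

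**Figure D1:**
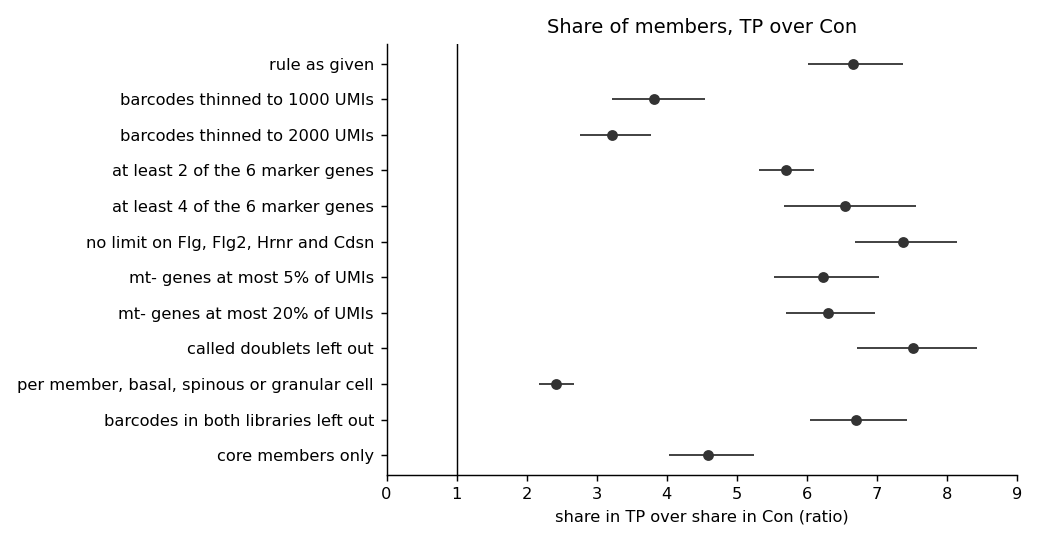
Ratio of the member share in TP to that in Con (horizontal axis, linear) under the rule as given and each other setting (rows). Points are ratios and bars are exact 95% intervals of counting error. Every point lies right of the line at 1, and the ratio is 3.82 and 3.22 when barcodes are thinned to 1000 and 2000 UMIs.

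The members were not of one kind. The summed level of the 6 rule genes ranged widely, and a bound of 20 per 10000 UMIs, chosen after these levels were seen, separated 333 Con and 725 TP cells with high levels, called core members here, from 166 and 851 low-level members. Low-level members were 33.3% of members in Con and 54.0% in TP. They were deep cells, with medians of 8498 UMIs in Con and 14799 in TP, whereas core members had 3661 and 5945. Krt17, which did not enter the rule, stood at 5919 CPM (UMIs of a gene per 1000000 UMIs, summed over the cells) in Con core members and 6008 in TP core members. In low-level members it was 329 and 408 CPM, above the 82.3 and 137 CPM of cells with spinous markers and no Krt79 and far below core members. Cells with basal markers and no Krt79 had 298 and 406 CPM. Krt10, a spinous keratin, was at 5419 and 14661 CPM in low-level members. The check marker therefore placed the core members in follicle epithelium, without telling the upper follicle from its other parts. The upper part of the label rests on the rule genes, and the low-level members are called by their rule only. Core members made up 0.788% of the Con barcodes and 3.62% of the TP barcodes, a ratio of 4.59 (interval 4.02 to 5.24).

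**Figure D2:**
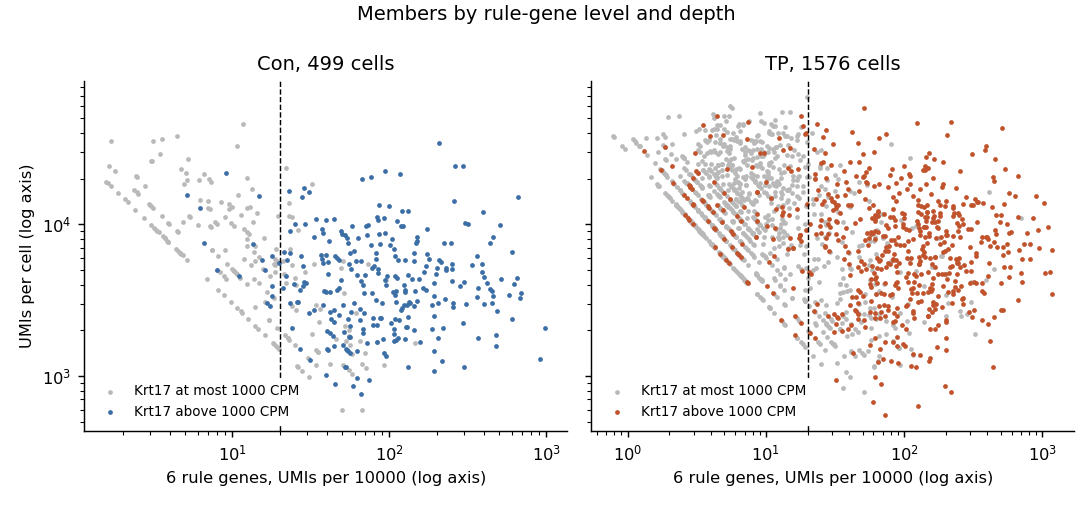
UMIs per cell (vertical log axis) against the summed level of the 6 rule genes per 10000 UMIs (horizontal log axis) for each of the 499 Con and 1576 TP members. The dashed line marks 20 per 10000, and coloured points have Krt17 above 1000 CPM. Coloured cells lie mostly right of the line, and cells left of it have a median depth of 8498 UMIs in Con and 14799 in TP.

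Called doublets, barcodes whose profile resembled artificial pairs of cells, were also uneven. They were 46.4% of low-level members in Con and 16.8% in TP, but 8.71% and 4.41% of core members. Of the members, 38 in Con and 76 in TP also met a rule for inner root sheath cells, another follicle layer. Without called doublets, Krt17 in members was at 4603 CPM in Con and 2323 CPM in TP. The part of doublets in the other values of low-level members was not tested. Near the threshold of the rule, cells with exactly 3 of the 6 genes had Krt79 at 728 CPM in Con and 358 CPM in TP, cells with all 6 had 5018 and 5964 CPM, and cells just outside with 2 of the 6 had 346 and 236 CPM. The libraries shared 303 barcode sequences, among them 5 Con and 15 TP members, and without these the ratio of shares was 6.69.

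Over all members, Krt17 was at 3035 CPM in Con and 2037 CPM in TP, against 132 and 323 CPM in all other barcodes. Several other genes were higher in core members than in the barcodes outside the members, in both libraries. Adgrl3, which encodes the adhesion receptor latrophilin 3, was at 1127 CPM in Con and 1300 CPM in TP core members, against 118 and 123 CPM in all barcodes outside the members. Sox9, a transcription factor of follicle stem cells, was at 140 and 233 CPM against 7.34 and 28.2 CPM. Lrig1, a brake on EGF receptors that marks stem cells at the junction of follicle and gland, was at 239 and 321 CPM against 38.01 and 63.2 CPM. All 3 genes were thus several fold higher than in the other cells of the same library. Klk7, a protease of the shedding layer, stood at 817 and 1093 CPM against 32.2 and 231 CPM. Sprr1a, a small proline-rich protein of the cornified envelope, stood at 388 and 583 CPM against 7.24 and 85.2 CPM. The other genes that led this comparison were Ephb2, Foxc1, Nebl, Inhbb, Ccl27a, Egr2, Trbc1, Itgb8 and Sox7. Over all members Aadac, Aldh3a1, Pinlyp and Barx2 were among the leading genes as well. Krt17, Sox9, Lrig1, Barx2, Plet1, Lgr6, Klf5 and Prdm1 were listed as 8 zone markers. Lgr6, Klf5 and Prdm1 went the other way and were lower in core members than outside the members in both libraries. Lgr6 was at 20.5 and 25.2 CPM against 44.6 and 55.0 CPM. Klf5 was at 155 and 161 CPM against 169 and 212 CPM, and Prdm1 at 7.23 and 5.62 CPM against 20.9 and 20.4 CPM. The 8 markers summed to 6810 and 7285 CPM in core members, where Krt17 alone held 5919 and 6008 CPM. The sum was 1871 and 1894 CPM in cells with bulge markers, another follicle class. It was 549 and 648 CPM in spinous cells, so the bulge cells shared part of this trait.

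Shares of cells with a UMI told the same at equal depth. After thinning each cell to 1000 UMIs, Krt17 was detected in 83.1% of Con core members (interval 78.6 to 87.0) and 75.8% of TP core members (interval 72.5 to 78.9). In cells with spinous markers and no Krt79, taken as background, the shares were 5.67% and 9.10%. Before thinning they were 91.6% and 88.8% in core members and 17.3% and 33.8% in the spinous cells. The thinned shares left out 8 Con and 11 TP core members as too shallow. Sox9 was detected in 11.4% of Con core members (interval 8.14 to 15.4) and 18.6% of TP core members (interval 15.8 to 21.7) after thinning, against 0.615% and 1.32% of spinous cells.

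**Figure D3:**
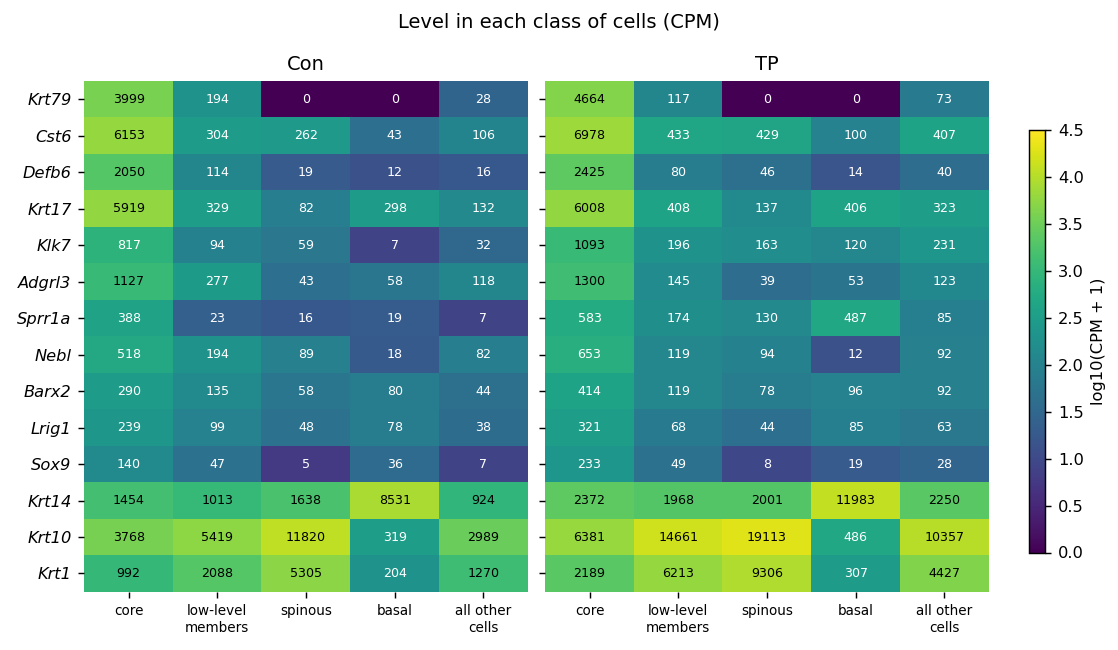
CPM (number in each field, colour as log10 of CPM plus 1) of rule, zone and layer genes (rows) in core members, low-level members, spinous cells, basal cells and all other cells (columns) of Con and TP. Krt17 is 5919 and 6008 CPM in core members and 329 and 408 CPM in low-level members.

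The nearest class was that of spinous cells, defined by Krt1 and Krt10 at 50 or more per 10000 UMIs without Krt79, with 4768 cells in Con and 5131 in TP. Over all members, 75 of 14416 genes (0.52%) were at least 2-fold higher than in spinous cells in both libraries, and 4 genes (0.0277%) were at least 2-fold lower. Core members differed more, with 164 of 13835 genes (1.19%) at least 2-fold higher and 109 (0.788%) at least 2-fold lower in both libraries. The genes higher in core members included secreted and matrix proteins. Abi3bp, an extracellular matrix protein, was at 334 CPM in Con and 281 CPM in TP against 10.5 and 20.3 CPM in spinous cells. Fst, the activin antagonist follistatin, was at 253 and 179 CPM against 8.81 and 10.1 CPM, and Inhbb, an activin subunit, was at 80.7 and 75.3 CPM against 2.00 and 1.84 CPM. Both were sums over the core members, and their detection in the same cells was not tested. Kalrn, Dpysl3 and Kif26b, genes of cytoskeletal regulation, and Cd200, an immune checkpoint ligand found on follicle epithelium, were higher in core members of both libraries too.

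Among the genes lower in core members, Krt1 was at 992 CPM in Con and 2189 CPM in TP core members against 5305 and 9306 CPM in spinous cells, whose own rule used Krt1. Mt4, a metallothionein of stratified epithelia, was at 175 and 185 CPM against 1418 and 1270 CPM. Krt78, Serpinb12, Serpinb7, Gadl1, Sox6, Sema3d and Ndufa4l2 were lower in the same way in both libraries. Against cells with granular markers, members of both libraries had less Lor, the main protein of the cornified envelope, at 4.08 and 21.3 CPM against 202 and 774 CPM, a class whose rule used genes of the same layer. Against cells with basal markers, members had less Krt5 and Krt14 and more Krt10, Krt77, Spink5 and Klk5. Of these, Krt5, Krt14 and Krt10 belong to the rule of that class. Klk5 is a protease of shedding and Spink5 encodes its inhibitor. Klk5 was at 137 and 172 CPM against 4.87 and 8.27 CPM, and Spink5 at 601 and 744 CPM against 35.7 and 60.8 CPM. Protease and inhibitor were thus both higher in members than in basal cells. A list of 19 proteases and inhibitors, with both among them, summed to 3312 and 4672 CPM in members. It summed to 3142 and 4434 CPM in spinous cells and 7003 and 10373 CPM in granular cells, so high levels were not particular to members.

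Members spread from basal to suprabasal keratins. The share of Krt1 and Krt10 among the UMIs of Krt1, Krt10, Krt5 and Krt14, none of them in the rule, had a median of 0.743 in Con and 0.822 in TP. It was below 0.2 in 55 Con and 147 TP members, from 0.2 to 0.8 in 226 and 595, and 0.8 or more in 212 and 834, while 6 Con members had no UMI of the 4 keratins. The upper range held 42.5% of Con members (interval 38.1 to 47.0) and 52.9% of TP members (interval 50.4 to 55.4), but the order turned to 48.5% and 44.9% when barcodes were thinned before the rule, and core members had 43.5% and 43.3%. These ranges are cuts of a continuous share, with 73 Con and 285 TP members within 0.05 of a bound.

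From the lowest to the highest range, 218 of 9516 genes (2.29%) were at least 2-fold higher and 205 (2.15%) at least 2-fold lower in both libraries. Krt1 and Krt10, which set the ranges, belong to the differentiated layers. Skint6, an immunoglobulin family gene of skin epithelium, went from 12.3 to 269 CPM in Con and from 18.2 to 390 CPM in TP, and Krt77, a suprabasal keratin, from 548 to 3368 CPM and from 485 to 5753 CPM. Krt78, Mt4, Hal, Tesc, Lypd5 and the connexin Gjb5 were higher at that end in both libraries as well. At the lower end were Krt15, a keratin of basal and stem cells, with 1444 CPM against 254 CPM in Con and 1664 CPM against 219 CPM in TP, and Apoe, the lipid carrier, with 6418 against 1079 CPM and 5795.5 against 1071 CPM. S100a6, Krt6a, Lgr5, C1qtnf12, Dapk2 and the chemokine gene Ccl27a were also higher at the lower end. Krt17 did not follow this order in Con, at 3231 CPM in the lowest and 3548 CPM in the highest range, while in TP it was 3256 and 1396 CPM.

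Core members also varied in Cst6, one of the rule genes, and ranges of it were taken. These ranges were set after these values were seen, and since Cst6 belongs to the rule and to the bound for core members, what follows is a description. Cst6 was below 10 per 10000 UMIs in 36.6% of Con core members (122 cells) and 41.7% of TP core members (302 cells), and 50 or more per 10000 in 27.0% (90 cells) and 28.3% (205 cells). From the low to the high range, 39 of 6097 genes (0.64%) were at least 2-fold higher and 52 (0.853%) at least 2-fold lower in both libraries. Krt17 went from 2891 to 10972 CPM in Con and from 3184 to 10866 CPM in TP. Klk7 went from 355 to 1340 CPM and from 471 to 1882 CPM. Sprr1a and Ivl, 2 genes of the cornified envelope, were also higher in the Cst6-high range. Sprr1a went from 80.7 to 859 CPM in Con and from 217 to 1192 CPM in TP. Ivl, which encodes involucrin, the scaffold protein of the envelope, went from 59.5 to 383 CPM and from 107 to 441 CPM. Crabp2, a retinoic acid binding protein, was at 44.2 and 247 CPM in Con and at 47.9 and 213 CPM in TP. Ly6g6c, Lypd5, Slurp1, Klk6, Krt23, Ptgr1 and Teddm3 were higher in the same cells. Cst6-low core members had more Auts2, Dclk1, Gpc6, Robo2, Samd5, Naaladl2 and Nhs, and also more Vcan, Ebf1, Fgf7 and Serpine2, genes that are high in dermal cells. The median share of Krt1 and Krt10 was 0.625 in Cst6-low and 0.857 in Cst6-high core members in Con, and 0.615 and 0.695 in TP. In the middle range it was 0.75 in Con and 0.845 in TP, so in TP it did not rise along the 3 ranges.

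**Figure D4:**
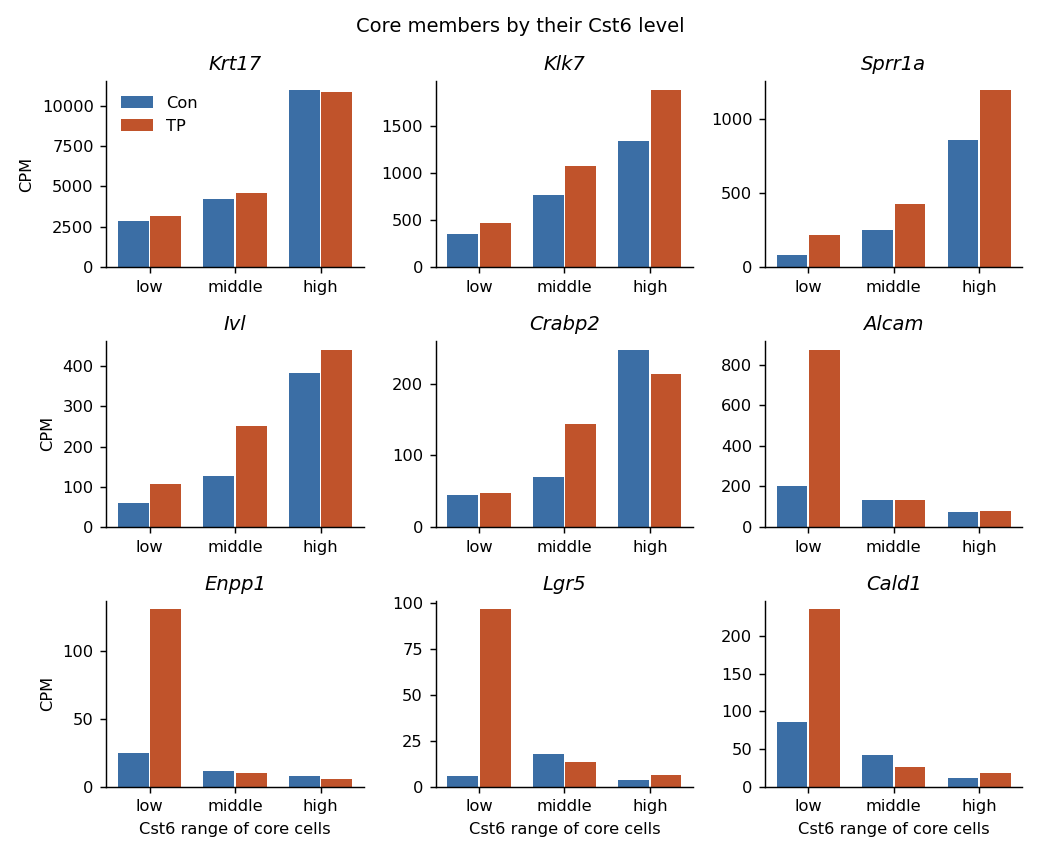
Level (bars, CPM, linear axes from 0) of 9 genes in core members of low, middle and high Cst6 level, with Con and TP side by side, each bar a sum over the cells of 1 library with no replicate error. Krt17, Klk7, Sprr1a, Ivl and Crabp2 are higher at high Cst6 in both libraries, and Alcam is at 874 CPM in the Cst6-low TP cells.

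Within members, 118 of 12263 genes with at least 50 UMIs (0.962%) had a level in TP at least 2 times that in Con and 141 (1.15%) the reverse, on log2 of CPM plus a pseudocount of 10 CPM, a scale that understates changes of low genes. The median gene was at -0.12 on this scale, with 4448 genes above 0 and 7815 below 0. These shares and counts over all genes are the background for the list counts below. The split depended on the scaling: with TMM factors of edgeR, which shifted the median to 0.06, 238 genes were higher and 52 lower. In core members alone, 56 of 9819 genes (0.57%) passed 2-fold toward TP and 110 (1.12%) toward Con. Of these, 22 and 30 were also at least 2-fold different in the same direction in spinous cells, and 1 gene was at least 2-fold different the other way. The share of all 9819 genes past 2-fold in spinous cells was not counted, so these overlaps have no background to be read against.

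Stress keratins had the highest list median over all members. Krt16, a keratin of hyperproliferative and wounded epidermis, was at 11.96 CPM in Con members (interval 8.58 to 16.2) and 242 CPM in TP members (interval 235 to 248). Krt6a, its partner keratin, was at 17.5 and 63.9 CPM, and Krt6b at 0.583 and 27.9 CPM from 2 and 597 UMIs, a ratio of 47.8 (interval 13.2 to 396). All 3 keratins of the list were at least 2-fold higher in TP, with a median log2 ratio of 1.84 in members, 2.07 in spinous cells and 3.10 in basal cells. Without called doublets, Krt16 in members was at 19.1 CPM in Con and 269 CPM in TP. In core members 2 of the 3 passed 2-fold, Krt6b having 2 Con and 28 TP UMIs there. In core members Krt16 was at 21.7 and 156 CPM, but 10 cells carried 70.6% of its UMIs there in TP, and in Con only 8 core cells had a Krt16 UMI. In Cst6-high core members the log2 ratios of Krt16 and Krt6a were 0.22 and 0.09, but the Con values there rested on 29 and 22 UMIs. These lay in 3.33% and 2.22% of the 90 Con cells. Thinned to 1000 UMIs, Krt16 was detected in 2.22% of these Con cells (interval 0.270 to 7.80). In the Cst6-high TP cells it was 4.93% (interval 2.39 to 8.87), and these intervals overlap. The thinned shares of Krt6a were 1.11% and 0.985%. At 1000 UMIs a cell, Krt16 was detected in 0.611% of Con members (interval 0.126 to 1.78, at the limit that a count of 0 allows) and 7.67% of TP members (interval 6.40 to 9.10), against 1.44% and 8.56% of spinous cells in the same random thinning.

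Immediate early genes, which respond within minutes to growth factors, stress and tissue dissociation, were all above 0 on the log2 scale, with a median of 0.86 over 20 genes. Of these, 6 were at least 2-fold higher in TP, where 0.962% of all genes were. Atf3, a stress transcription factor, was at 244 CPM in Con and 679 CPM in TP members, and was spread over many cells, with 9.22% of its TP UMIs in the top 10 cells. Thinned to 1000 UMIs, it was detected in 14.7% of Con members (interval 11.6 to 18.1) and 31.5% of TP members (interval 29.2 to 33.9), and in 23.3% and 35.7% of spinous cells. Fosl1, an AP-1 subunit, was at 2.33 and 41.8 CPM. Btg2, Nr4a1, Zfp36 and Ier3 were the others past 2-fold. The median of the list was 0.73 in core members, 0.51 in spinous cells and 1.01 in basal cells. The list summed to 5286 and 9067 CPM in members and 3637 and 9854 CPM in all other barcodes. Of the EGF family, which signals in epidermal repair, Hbegf was at 28.0 CPM in Con and 130 CPM in TP members, and in core members at 41.0 and 123 CPM. Areg, Epgn and Ereg were at 25.1, 7.29 and 1.46 CPM in Con and 54.0, 23.6 and 11.4 CPM in TP members, each short of 2-fold on the scale used. The receptor Egfr was lower, at 516 and 345 CPM, and 1 of 11 genes of the list passed 2-fold.

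**Figure D5:**
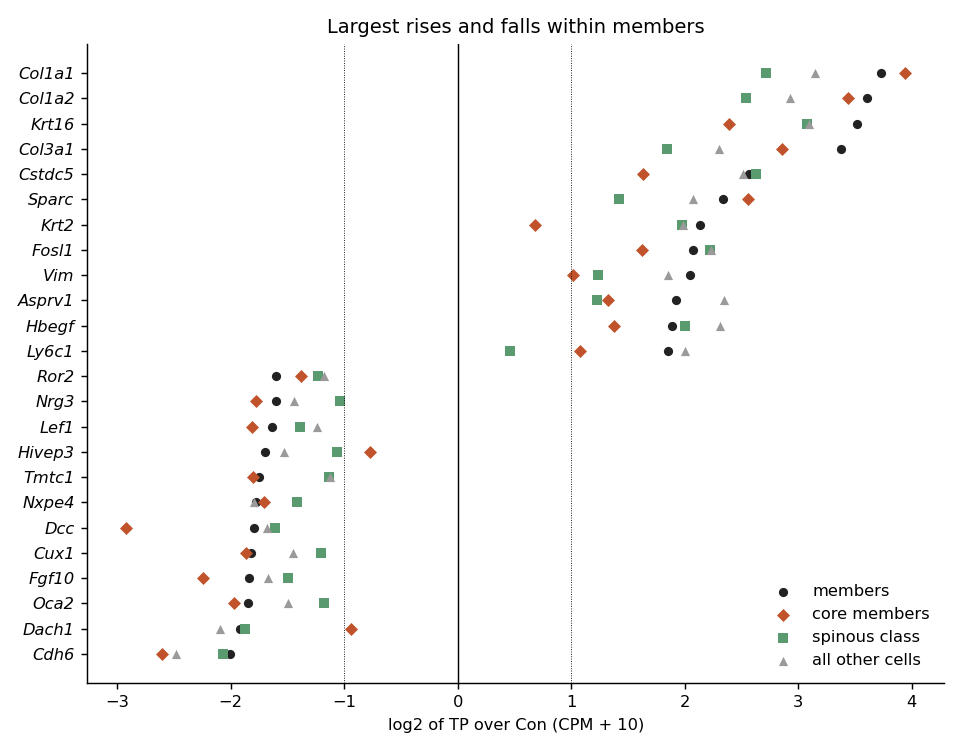
Log2 ratio of TP to Con (horizontal axis, CPM plus 10) of the 12 greatest rises and 12 greatest falls of members (rows), with members, core members, spinous cells and all other cells as separate symbols and dotted lines at 1 and -1. In each of these 4 sets, all 12 rises lie right of 0 and all 12 falls left of 0.

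Keratins of the differentiated layers were also higher in TP members than in Con members. Krt1 was at 1557 and 5043 CPM in members and at 992 and 2189 CPM in core members. Krt10 was at 4620 and 12253 CPM in members and 3768 and 6381 CPM in core members. All 9 genes of the spinous list were above 0, 3 of them past 2-fold, with a median of 0.75 in members, 0.25 in core members and 0.61 in spinous cells. Krt2, a late suprabasal keratin, was at 8.46 and 71.1 CPM, Asprv1, a protease that processes filaggrin, at 40.8 and 183 CPM, and the cystatin gene Cstdc5 at 13.1 and 127 CPM in members. In core members Krt2 was at 4.82 and 13.8 CPM from 8 and 86 UMIs and short of 2-fold on the scale used, Asprv1 at 28.9 and 87.2 CPM and Cstdc5 at 19.3 and 80.8 CPM. Of 25 genes of the cornified envelope list, 14 had enough UMIs, and Lor, Cnfn and Sprr1b passed 2-fold, with a median of 0.38. The median was 0.33 in core members, 0.51 in spinous cells and 0.67 in basal cells. The rule capped genes of the granular layer, which bear on this list.

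Collagen genes and other genes of fibroblasts were among the greatest differences. Col1a1 was at 39.1 CPM in Con and 639 CPM in TP members, Col1a2 at 61.8 and 863 CPM, Col3a1 at 45.2 and 563 CPM, and Sparc, a matrix glycoprotein, at 136 and 728 CPM. Their UMIs sat in few cells, with 61.9% of Col1a1 in TP members and 88.9% in TP core members in 10 cells each. Of the 7 fibroblast markers, 6 were at least 2-fold higher in TP members, and the 7 summed to 230 CPM in Con and 2367 CPM in TP members, with Dpt at 0 in Con. In all other barcodes the sum was 743 and 4444 CPM, and in spinous cells 129 and 574 CPM. In cells with basal markers it was 1383 and 241 CPM. Fibroblast RNA was thus higher in TP in members, spinous cells and all other barcodes and lower in TP in basal cells. The sum was 160 and 171 CPM in cells with granular markers and 218 and 270.5 CPM in cells with inner root sheath markers. Its part in the member values was not tested. Vim and Ly6c1, which belong to mesenchymal and blood vessel cells, were at 30.3 and 156 CPM and at 4.37 and 41.8 CPM.

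The 12 greatest falls in TP members included genes known from the hair bulb, the dermal papilla and pigment cells. Cdh6, a cadherin, was at 700 CPM in Con and 167 CPM in TP, Cux1, a homeodomain factor of the inner root sheath, at 1393 and 386 CPM, and Lef1, a Wnt effector of hair matrix, at 452 and 138 CPM. Fgf10, a dermal papilla growth factor, was at 75.8 and 14.0 CPM, and Oca2, a melanocyte gene, at 45.2 and 5.37 CPM. Dach1, Dcc, Nxpe4, Tmtc1, Hivep3, Nrg3 and Ror2 completed these falls, and all 12 were at least 2-fold lower in spinous cells as well. Of the markers of pigment cells and of hair shaft, 3 of 5 and 4 of 6 were above 0 in members, with medians of 0.14 and 0.18, while their sums were 158 and 140.04 CPM and 204 and 153 CPM. The 6 dermal papilla markers summed to 398 CPM in Con and 151 CPM in TP members, 1224 and 470 CPM in all other barcodes, and 357 and 46.1 CPM in core members. The 6 inner root sheath markers summed to 2508 and 1866 CPM in members, 1283 and 447 CPM in core members and 3745 and 1242 CPM in all other barcodes. Without called doublets, 22 genes in place of 141 were at least 2-fold lower in members, of which 9 were among the 141. Log2 ratios were then 0.11 for Oca2, -0.43 for Lef1, -0.80 for Cux1 and -1.01 for Cdh6. The part of RNA from bulb cells in these values was not tested.

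Among signalling lists, all 8 hedgehog genes were below 0 in members, none past 2-fold, with a median of -0.64, and the median was 0.10 without called doublets. Over all genes, 7815 of 12263 were below 0. Gli3 was at 186 CPM in Con and 92.5 CPM in TP members, and Ptch1, the receptor and target of the pathway, at 109 and 104 CPM. Of 9 Notch pathway genes, 8 were below 0 with a median of -0.55, and the ligand Jag1 was at 193 and 84.3 CPM, past 2-fold. In the list of 15 Wnt genes only Lef1 was past 2-fold in members, and the median of -0.20 was 0.02 without called doublets and at 0 with TMM factors. Of 12 steroid genes none passed 2-fold in members, and 1, the estrogen receptor gene Esr1, was at least 2-fold lower in core members, at 25.3 and 7.23 CPM. Srd5a1, which makes dihydrotestosterone, was at 21.9 and 36.02 CPM, and Fkbp5, a target of steroid receptors, at 28.6 and 46.8 CPM. Among proliferation genes, Mki67 was at 318 and 141 CPM in members and 258 and 112 CPM in core members, 1 of 17 genes past 2-fold, with a median of -0.30 that was 0.03 when the ranges of keratin share were weighted as in Con.

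Of the zone markers in core members, which met the same bound on the rule genes in both libraries, Krt17 had a ratio of 1.01 (interval 0.992 to 1.04). Sox9 was higher in TP, with a ratio of 1.67 (interval 1.45 to 1.92). Barx2, a homeobox gene, was at 290 CPM in Con and 414 CPM in TP, Lrig1 at 239 and 321 CPM and Klf5 at 155 and 161 CPM. Plet1, a surface protein of the follicle junction, was the 1 of 8 zone markers past 2-fold, at 39.2 CPM (interval 30.2 to 49.9) in Con and 118 CPM (interval 109 to 126) in TP, with 23.8% of its TP UMIs in 10 cells. It was at 38.1 and 125 CPM in basal cells, 6.81 and 18.8 CPM in spinous cells and 7.72 and 21.8 CPM in all other barcodes. In all other barcodes the log2 ratios were 1.23 for Krt17, 1.14 for Sox9, 0.90 for Barx2, 0.61 for Lrig1 and 0.31 for Klf5. In core members they were 0.02, 0.70, 0.50, 0.41 and 0.04, so these rises were not particular to core members. The rule genes, given as a description, had log2 ratios from -0.29 for 2310046K23Rik to 0.24 for Defb6 in core members, and from -0.80 to -0.42 over all members, of which more in TP were low-level.

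Alcam was the 1 of 9819 genes that passed 2-fold in core members and 2-fold the other way in spinous cells. It was picked from these genes by this same difference, so its opposite order is part of the choice. Alcam encodes the adhesion molecule CD166. In core members it was at 136 CPM in Con (interval 119 to 155) and 399 CPM in TP (interval 384 to 415), a ratio of 2.93 (interval 2.56 to 3.38). In spinous cells it was at 103 and 41.0 CPM, and in all other barcodes it was also lower in TP, with a log2 ratio of -0.77. The TP core UMIs were concentrated, with 52.3% in 10 cells, against 32.7% in 10 cells in Con. With each cell given equal weight, the levels were 120 and 323 CPM. Over all members Alcam held 723 of 3429181 UMIs in Con and 4933 of 21407452 UMIs in TP, closer together than in core members. With equal weight per cell, it was at 160 and 255 CPM over all members. In Cst6-low core members it was at 202 and 874 CPM, and in Cst6-high ones at 74.8 and 76.7 CPM. Thinned to 1000 UMIs, Cst6-low members with an Alcam UMI were 17.5% in Con (interval 11.2 to 25.5) and 20.2% in TP (interval 15.8 to 25.2), and these intervals overlap. Over all core members they were 8.92% (interval 6.06 to 12.6) and 11.9% (interval 9.62 to 14.5), which also overlap, against 8.10% and 4.60% of spinous cells. Its promoter window, shown because Alcam had this opposite order, lies at chr16:52453082-52453331 on the minus strand of GRCm38.p6, held no GATAA or TGANTCA and had 69.2% G and C.
Alcam: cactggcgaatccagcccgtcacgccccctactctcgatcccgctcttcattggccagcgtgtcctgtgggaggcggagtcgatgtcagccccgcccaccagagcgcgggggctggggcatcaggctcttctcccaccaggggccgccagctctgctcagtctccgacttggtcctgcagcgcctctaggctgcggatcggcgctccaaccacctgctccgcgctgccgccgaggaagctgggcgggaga

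Other genes were also high in the Cst6-low TP cells as a set. Lgr5, a receptor for R-spondins and a stem cell gene of the lower follicle, was at 5.76 CPM in Con and 96.5 CPM in TP in this set, and Krt75, a keratin of the companion layer, at 13.5 and 83.9 CPM. Enpp1, an enzyme that makes pyrophosphate, was at 24.97 and 131 CPM. In TP, 10 cells of this set held 79.6% of the Lgr5 UMIs, 94.5% of the Krt75 UMIs and 67.0% of the Enpp1 UMIs, and in Con the set had 3 Lgr5 UMIs. At 1000 UMIs, Lgr5 was detected in 0 of 120 Con cells (interval up to 3.03%) and 3.97% of TP cells of the set (interval 2.07 to 6.84), and these intervals overlap. With equal weight per cell, Lgr5 was at 1.84 and 46.6 CPM, Krt75 was at 17.2 and 31.4 CPM and Enpp1 at 19.8 and 68.4 CPM. Over all core members Lgr5 was at 9.64 CPM in Con from 16 UMIs and 43.0 CPM in TP from 268 UMIs, with 72.8% of the TP UMIs in 10 cells, and at 5.62 and 41.2 CPM without called doublets. Krt75 had 89.2% of its TP core UMIs in 10 cells, and with equal weight per cell it was at 12.8 CPM in Con and 14.99 CPM in TP core members. Tm4sf1, Gas1, Tcf7l1 and Cpe, also named after their values were seen, were 1.03 to 1.16 higher on the log2 scale in TP core members, from 15 to 20 UMIs each in Con. With equal weight per cell, Tm4sf1 was at 11.1 CPM in Con and 19.7 CPM in TP core members. Tcf7l1 was then at 15.4 and 27.8 CPM and Gas1 at 5.55 and 25.3 CPM. Tm4sf1, Gas1, Tcf7l1 and Cpe were chosen with the spinous difference subtracted, so their spinous values, between -0.30 and 0.14, follow from the choice. Alcam, Lgr5 and Enpp1 came from the same ranking. In all other barcodes the log2 ratios were -0.069 for Tm4sf1, 0.74 for Gas1, 0.43 for Tcf7l1, 0.71 for Cpe and 0.82 for Lgr5. In TP core members, 10 cells held 75.8% of the Tm4sf1 UMIs, 41.4% of the Tcf7l1 UMIs and 35.7% of the Gas1 UMIs. Whether these were the same cells for each gene was not tested.

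Among genes lower in TP core members, Tchh, a protein of the inner root sheath, was at 506 CPM in Con and 94.4 CPM in TP, and Krt71, a keratin of that sheath, at 430 and 107 CPM, against a log2 ratio of -1.52 for Krt71 in spinous cells. Dcc and Robo1, receptors of axon guidance cues, were at 133 and 8.83 CPM and at 507 and 124 CPM. In spinous cells the log2 ratios were -1.61 for Dcc, -0.95 for Robo1 and -0.79 for Tchh. In all other barcodes they were -1.68, -1.12 and -1.58, and -1.94 for Krt71, so these genes were lower in TP outside the members too. Ifi27l2a, an interferon-induced gene, was at 122 CPM in Con and 35.97 CPM in TP core members. Its log2 ratios were -1.52 in core members, -0.30 in spinous cells and 0.96 in all other barcodes. Tchh, Dcc, Robo1 and Ifi27l2a were chosen with the spinous difference subtracted, so their smaller spinous falls follow from the choice. At 1000 UMIs Ifi27l2a was detected in 6.77% of Con core members (interval 4.29 to 10.1) and 3.22% of TP core members (interval 2.05 to 4.79). These intervals overlap, and the shares were 1.63% and 1.51% in spinous cells. In Con core members 10 cells carried 67.5% of the Ifi27l2a UMIs. The other 8 interferon genes with enough UMIs did not pass 2-fold in members.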

How the data were processed

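Single-cell RNA was measured in 2 droplet libraries, Con and TP, each from 15 pooled mice. UMI counts per gene and barcode were deposited by the authors as filtered matrices of 32285 genes. The submitters' processing notes name Cell Ranger 8.0.1 and mm10, and the counts are not normalized. The deposited matrices were used with barcodes of 200 to 8000 genes and at most 10% mitochondrial UMIs, which left 42244 barcodes with 126023483 UMIs in Con and 20045 with 156376139 UMIs in TP. Members and comparison classes were set by marker rules. UMIs were summed over the cells of each library and scaled to CPM, and ratios were taken on log2 of CPM plus 10 for genes whose members held 50 UMIs or more over Con and TP combined. A gene was counted when the ratio reached 2-fold. Exact Clopper-Pearson intervals were used for shares, exact Poisson intervals for levels and exact conditional binomial intervals for ratios. No test across libraries was made.

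The study's methods name a doublet caller, and whether it was applied before deposit is not given in the sources used here. Doublets were kept, and a procedure modelled on it (25% artificial doublets, 30 components, 7.5% of barcodes called) gave the values without them. The members and all gene lists were chosen with earlier results of these data known. Named genes were the rule and limit genes, the 8 highest genes of members in each library (Malat1, Krt10, Lgals7, Krtdap, Ptma, Tpt1, Eef1a1, Cst6, Krt17, Krt1 and Krt77), the 12 greatest rises and 12 greatest falls, the 15 genes leading members over other barcodes, the 5 highest and 5 lowest against each class, up to 4 genes a list, and the 8 greatest rises and falls along the keratin share. The core bound, the Cst6 ranges and the genes named for them were chosen after values were seen. A class with bulge markers carried fibroblast RNA, and beyond its sum of zone markers the comparison with it is not described. Alternatives changed the thinning, the marker number, the mitochondrial limit, the denominator, the pseudocount, the UMI minimum, the scaling (edgeR 4.0.16 TMM in R 4.3.3), the weights and doublets. Calculations, tested on simulated data, used scikit-learn 1.9.0, pandas 2.3.3, scipy 1.17.1 and numpy 2.4.6 under Python 3.11.15. Promoter sequences and positions came from RefSeq GRCm38.p6.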

Additional observations from a re-analysis of the deposited data

Results flagged for a closer look

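Alcam had opposite directions in core members and spinous cells of the same libraries. Its log2 ratio of TP to Con was 1.49 in core members, a set bounded after values were seen, and -1.15 in spinous cells. Over all members it held 723 of 3429181 UMIs in Con and 4933 of 21407452 UMIs in TP, closer together than in core members. The difference between core members and spinous cells was not tested, since each group had 1 library. In TP core members, 52.3% of the Alcam UMIs lay in 10 cells. Alcam is the 1 of 9819 genes that passed 2-fold in opposite directions in these sets. It was picked by this same difference, so the opposite directions are part of the choice.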

How the results depend on the processing

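The ratio of member shares was above 1 under every setting tried. Against 6.66 it was 3.82 and 3.22 with barcodes thinned to 1000 and 2000 UMIs, 5.69 with 2 of the 6 genes and 7.51 without called doublets. It was 2.41 per member, basal, spinous or granular cell and 4.59 for core members, a set chosen after the data were seen. The counts of genes at least 2-fold higher and lower in TP members, 118 and 141, were 439 and 596 with a pseudocount of 1 CPM, 27 and 19 with 50 CPM, and 238 and 52 with TMM factors. The lower count was 75 with equal weight per cell, 81 with members thinned to 1000 UMIs and 22 without called doublets, and both were 40 and 83 with the rule applied after thinning. Core members had 56 higher genes. Of the list medians of at least 0.5 in size, that of the rule genes, -0.50, turned to 0.32 with the rule after thinning and 0.15 in core members, and that of hedgehog genes, -0.64, to 0.10 without called doublets. Over the same genes in core members, the median was 0.08 in place of -0.54 for 2 mural markers, and among smaller medians -1.10 in place of 0.14 for melanocyte, -0.48 in place of 0.18 for hair shaft, -0.063 in place of 0.14 for sebaceous, 0.052 in place of -0.067 for antimicrobial and 0.029 in place of -0.085 for detoxification genes. In core members 5 of the 6 rule genes turned, to between 0.11 and 0.24. Among named genes past 2-fold in members, those that turned were Ndufa4l2 (-0.062) and Pinlyp (-0.14) with the rule after thinning, and Oca2 (0.11) and Tyr (0.22) without called doublets. The share of members in the upper keratin range, 42.5% in Con and 52.9% in TP, was 49.1% in TP with 4 of the 6 genes, 48.5% and 44.9% with the rule after thinning, and 43.5% and 43.3% in core members. Against spinous cells, 75 higher and 4 lower genes became 26 lower with 4 of the 6 genes, 173 and 137 with the rule after thinning, 9 lower without called doublets, and 164 and 109 in core members. The causes were not tested. Leaving out a replicate was not possible, as each group had 1 library. No paired analysis was possible because each group had 1 library and no replicate number to pair.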

Other observations

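Of 18 protease and inhibitor genes with enough UMIs in members, 17 were above 0 on the log2 scale with a median of 0.31, and 2 passed 2-fold toward TP, where 0.962% of all genes did. These were Cstb, the cysteine protease inhibitor cystatin B, at 167 CPM in Con and 389 CPM in TP, and Serpinb2, a serine protease inhibitor of keratinocytes, at 78.4 and 232 CPM, while in core members Serpinb2 was at 72.9 and 107 CPM and Klk10 passed 2-fold beside Cstb. None of 16 barrier lipid genes passed 2-fold (median 0.39, and 0.13 in core members), nor any of 20 cholesterol genes (median 0.33, and 0.07 in core members). B2m and H2-K1, which present antigen as class I molecules, were at 656 and 469 CPM in Con and 1013 and 629 CPM in TP members. The class II antigen presentation genes had a median of 0.59, and Cd74, the invariant chain, was the 1 of 6 past 2-fold, at 8.46 and 29.3 CPM, while in core members the median was 0.13 and none passed 2-fold. Immune cell markers summed to 11.7 CPM in Con and 27.7 CPM in TP members, with all 4 counted genes above 0, and class II genes to 26.8 and 70.6 CPM in members and 70.2 and 181 CPM in all other barcodes. The part of immune cell RNA was not tested. None of 7 antimicrobial genes passed 2-fold. In the sebaceous list none of 14 genes passed 2-fold in members. Soat1, an enzyme of cholesterol ester formation, was the 1 at least 2-fold lower in core members, at 19.3 and 3.05 CPM, while over all members it was at 24.5 CPM in Con and 47.5 CPM in TP, and Scd1, a lipid desaturase of the gland, was at 45.8 and 43.4 CPM in core members.

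Gja1, the connexin of gap junctions in basal cells, was at 251 CPM in Con and 94.6 CPM in TP core members, while Gjb5, a connexin of differentiated layers, was at 28.3 and 53.6 CPM. Dnajb1, a heat shock co-chaperone, was at 107 and 227 CPM there, the 1 of 12 heat shock genes past 2-fold. No explanation of these values was tested.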
